A study of Mus musculus with 18 samples.

Results

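The 38 genes described here mark the cells of cerebral blood vessels. They were taken by name from a list of endothelial and mural cell genes of the blood-brain barrier, a list drawn up with earlier results of these data known. The rule sets no threshold on a measured value, and all 38 were found among the 23420 gene symbols of the count table. By role they comprised 6 receptors of the VEGF, Tie and TGF-beta systems and their partners, and 5 proteins of cell junctions and the luminal surface. A further 5 were genes of barrier transport, among them Bsg, a chaperone of lactate carriers. The rest were 9 other surface or secreted endothelial proteins, 5 transcription factors, 5 pericyte genes and 3 contractile genes of smooth muscle.

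Every mouse carried Camk2a-Cre and Rpl22HA, an allele that adds an HA epitope to a ribosomal protein once Cre has acted. Total RNA (input) and polysomal RNA pulled down through the tag (IP) were sequenced from the brain of control mice without a tumor, of mice whose cortex had been implanted with glioma cells, and of such tumor mice given AZD8055, which blocks mTOR kinase activity (called AZD here). With 3 conditions and 2 fractions there were 6 groups of 3 libraries. The sources used here do not give the dose and duration of AZD8055, the age of the mice, the glioma cells or whether each number stands for a separate mouse, so a p-value speaks only of the spread among libraries. Camk2a drives Cre in excitatory neurons of the forebrain, and vessel cells are not among the cells in which that promoter is known to be active. The IP values of vessel genes are therefore levels in a fraction that was not designed to hold them.

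As background, brain endothelial cells are sealed by tight junctions, carry few vesicles and express efflux pumps and nutrient carriers, and this barrier state is kept by Wnt signals and by pericytes that share the basement membrane with the endothelium. VEGF acts on the receptors Kdr and Flt1 to drive vessel growth and permeability. Angiopoietins act on Tek, whose co-receptor is Tie1 and whose phosphatase is Ptprb. Vessels inside gliomas are known for losing parts of this barrier programme.

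Total counts per library ranged from 13561511 to 34178417. Levels are given as CPM, the count of a gene relative to its library's TMM-scaled total, in the order of replicates 1, 2 and 3. Levels of different genes are not compared, because longer genes collect more reads. All 38 genes passed the filter on low counts in each comparison. The lowest count of any of them was 11 in the 15 libraries outside AZD IP, for Sox18. In AZD IP 8 genes had a count under 10 in some library, and the lowest was 2, for Anpep. The barcoding labels share one prefix for control and tumor input, another for control and tumor IP and a further one for all AZD libraries. Each prefix is read here as a library set, which the labels do not state. The set therefore changes together with the group whenever AZD is compared with another condition, and between input and IP of control and tumor; there, set and group cannot be told apart. Within 1 set lie the tumor to control comparisons of either fraction and the comparison of the AZD fractions with each other.

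**Figure D1:**
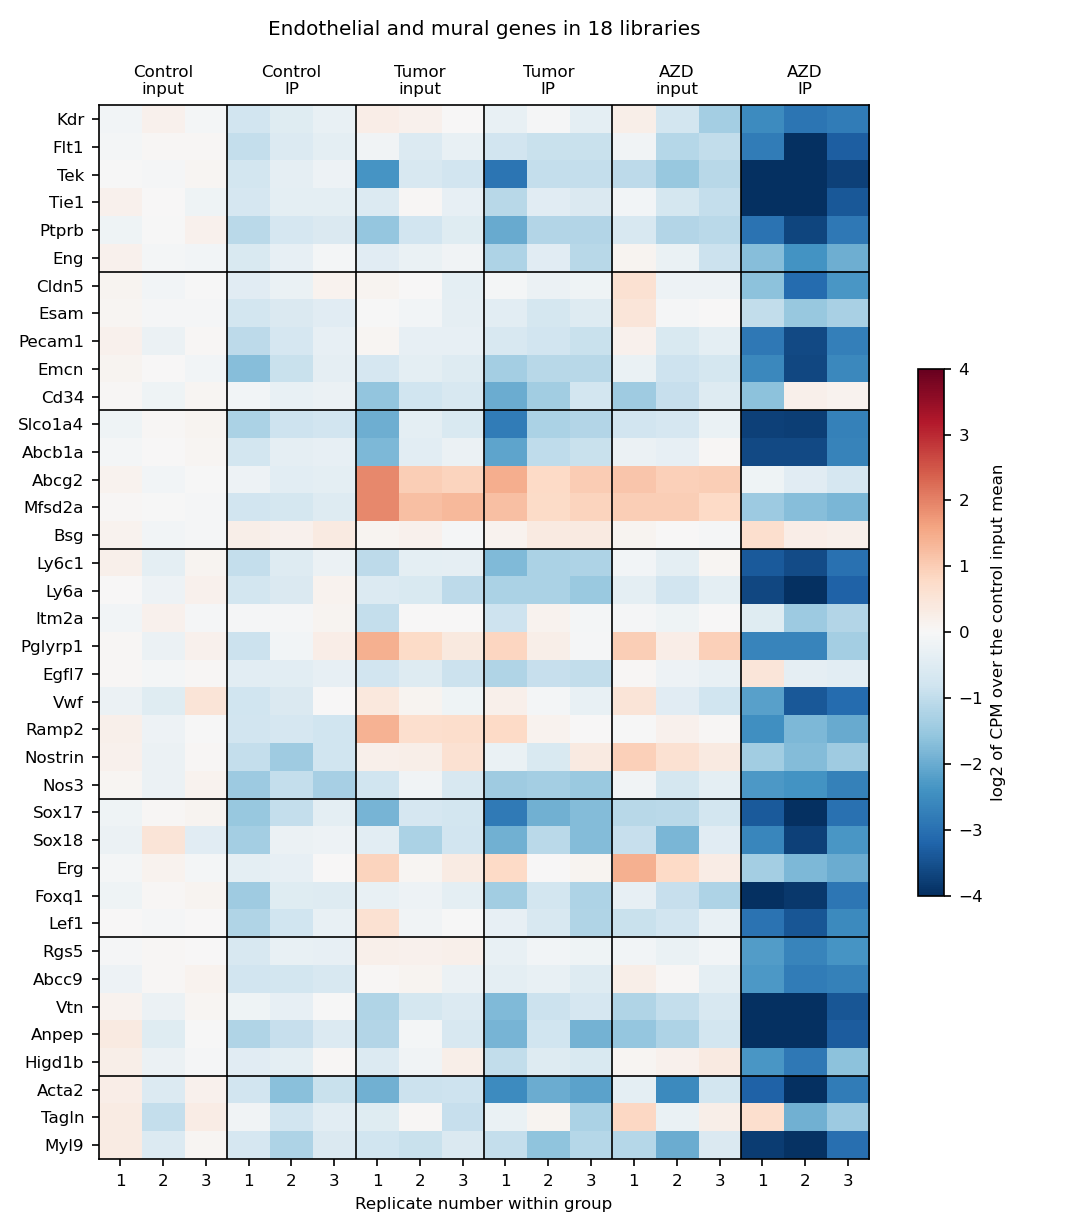
Heat map of the 38 genes (vertical axis, grouped by role) in the 18 libraries (horizontal axis, replicates 1 to 3 of each group). Colour gives log2 of CPM over the mean of the 3 control input libraries, and values beyond 4 in size are drawn in the end colour. The AZD IP columns are blue for most genes, Abcg2 and Mfsd2a are red in tumor input, tumor IP and AZD input, and Bsg stays near white throughout.

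Replicate 1 of the tumor group stood apart for several vessel genes in both fractions. Tek measured 4.65 CPM in tumor input 1, against 15.5 and 14 in tumor input 2 and 3, and Slco1a4 measured 29.0 against 85.6 and 73.3. Abcg2 went the other way, with 108 CPM against 57.0 and 53.8. Outside the vessel genes, the same library had the lowest Camk2a of its group (227 CPM against 351 and 712) and the highest Pdgfra (3270 against 2190 and 2610), a gene of the oligodendrocyte lineage that is high in many gliomas. The summed level of 3 erythrocyte markers was also highest in replicate 1. Of the 3, 2 had no counts in these groups, so the sum is the level of 1 gene. It was 39.7 CPM in tumor input 1 against 4.02 and 5.28, and 32.5 in tumor IP 1 against 4.21 and 6.4.

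In control cortex the vessel genes were lower in IP than in input. Of the 38 genes, 26 were lower and 0 were higher at an adjusted p under 0.05 (edgeR quasi-likelihood test, Benjamini-Hochberg adjustment over all genes tested), where 18.8% of all genes tested were lower and 17.7% higher. The median log2 fold was -0.55 for the 38 genes and -0.02 for all genes. Nos3, the endothelial nitric oxide synthase, measured 11.3, 9.2 and 11.9 CPM in input and 3.91, 5.53 and 4.32 in IP. Slco1a4, an organic anion carrier of barrier endothelium, went from 99.2, 114 and 121 CPM to 46.7, 62.8 and 66.2. Both sets of libraries were apart for these genes, and the log2 folds were -1.27 ± 0.17 (SE, n = 3 per group, adjusted p = 0.000121) and -0.95 ± 0.12 (adjusted p = 0.000125). Mfsd2a, the carrier that brings docosahexaenoic acid into the brain and restrains vesicle traffic in the endothelium, measured 23.9, 22.9 and 22 CPM in input and 13.5, 14.2 and 15.9 in IP. Abcc9, a potassium channel subunit of pericytes, measured 17.9, 21.4 and 22.6 CPM in input and 12.1, 12.4 and 13.1 in IP. These were also lower in every IP library (-0.68 ± 0.10 and -0.74 ± 0.11 on the log2 scale).

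All roles held genes that were lower in control IP: 5 of 6 receptors, 4 of 5 junction and surface genes, 4 of 5 transport genes, 5 of 9 other endothelial genes, 3 of 5 transcription factors, 3 of 5 pericyte genes and 2 of 3 contractile genes. Of the 26 genes, 9 passed under every alternative tried (Ptprb, Esam, Pecam1, Mfsd2a, Ramp2, Nostrin, Nos3, Rgs5 and Abcc9). The fit of all 18 libraries together called 10, where the share of all genes called fell from 36.5% to 22.9%. Cd34, a sialomucin of vessels and progenitors, was the weakest (-0.24 ± 0.09, adjusted p = 0.0478) and lost its call under 7 alternatives, among them leaving out any control replicate. The genes that did not pass included Cldn5, the main claudin of the barrier, at -0.19 ± 0.14 (adjusted p = 0.289). Itm2a, a membrane protein, stood at -0.02 ± 0.10 and Bsg at 0.23 ± 0.09 (adjusted p = 0.864 and 0.0619). Bsg encodes basigin, a chaperone of lactate carriers that many cell types besides endothelium express. With the replicate number as a block, which pairs input and IP, 29 genes were lower, Ly6a, Vwf and Tagln now included, and Bsg was higher (adjusted p = 0.0374). The shares of all genes rose as well in that fit, to 23.1% lower and 21.9% higher.

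In tumor cortex the same difference was seen in size, but not past the threshold. None of the 38 genes passed in edgeR (0 higher and 0 lower, against 2.11% and 2.98% of all genes). In the same test 15 had an unadjusted p under 0.05, as had 3222 of the 15245 genes tested. DESeq2 called 9, all lower, where it called 6% of all genes lower and 5.34% higher. The median log2 fold was -0.51. Rgs5, a regulator of G protein signalling and a standard pericyte marker, was among the nearest to the threshold: 74.3, 73.1 and 75.5 CPM in input and 53.4, 60.7 and 57.4 in IP, without overlap (-0.37 ± 0.09, adjusted p = 0.0586). Nos3 measured 6.28, 9.87 and 6.86 CPM in input and 4.01, 4.25 and 3.84 in IP (-0.92 ± 0.22, adjusted p = 0.0613). The pairs carry much of the spread: with the replicate number as a block, 28 genes were lower and 1 (Bsg) higher, against 18.1% and 17.6% of all genes in the same fit. In that fit Slco1a4 had a log2 fold of -0.76 ± 0.09 (adjusted p = 3.77e-07) and Ly6c1 one of -0.82 ± 0.12 (adjusted p = 6.77e-06). Without tumor replicate 1, 11 of the genes were called lower in the unblocked fit, among them Slco1a4, Abcb1a and Mfsd2a, against 6.31% of all genes.

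The depletion in IP was not shown to differ between tumor and control. For the difference of the IP to input folds, 0 of 38 genes passed in either direction in edgeR (0.05% of all genes were higher and 0.0187% lower), 0 had an unadjusted p under 0.05, and DESeq2 also called 0. The differences ranged from -0.36 for Pglyrp1 to 0.58 for Nostrin, with SE of 0.52 and 0.35. Within numbered pairs, the median log2 of IP over input across the 38 genes was -0.82, -0.43 and -0.36 in control and -0.56, -0.44 and -0.43 in tumor (means -0.54 ± 0.25 and -0.48 ± 0.07, SD, n = 3). In 29 genes of control and 32 of tumor, all 3 pairs were below 0.

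**Figure D2:**
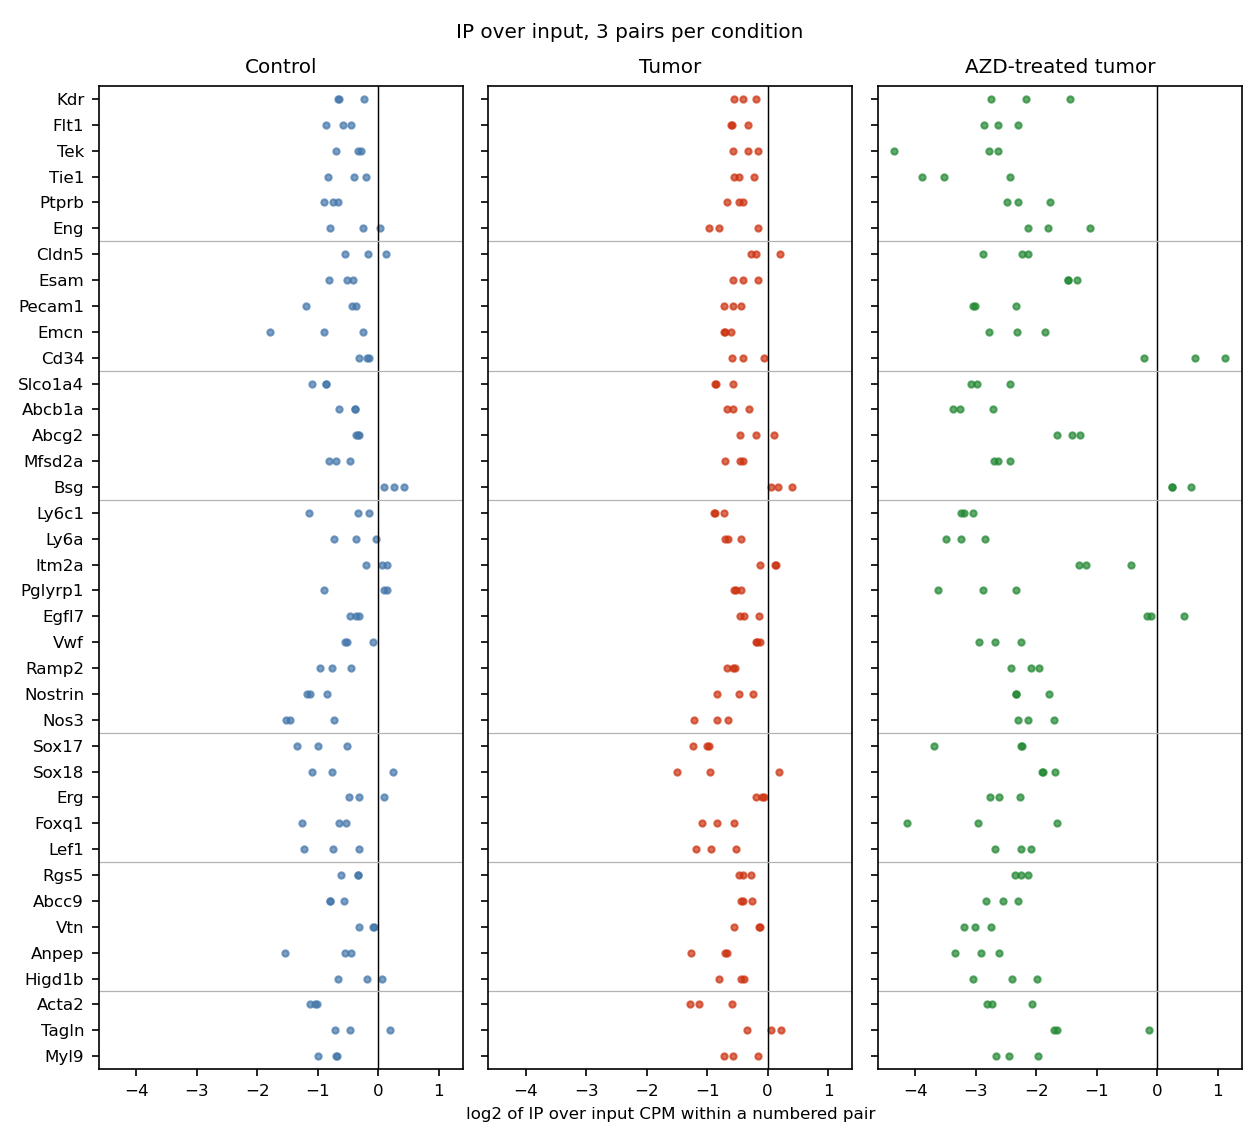
Log2 of IP over input CPM (horizontal axis) for each of the 38 genes (vertical axis, grouped by role), with 1 point per numbered pair and 1 panel per condition. In control and tumor most points lie between -1 and 0, with mean medians of -0.54 and -0.48, and in AZD-treated tumor most lie below -1, while Cd34, Bsg, Egfl7, Itm2a and Tagln have at least 1 pair above -1.

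With AZD the vessel genes were far lower in IP than in input. Of 38 genes, 34 were lower and 1, Bsg, was higher, where 32.5% of all genes were lower and 29% higher, and the median log2 fold was -2.39 against -0.02 for all genes. All 6 receptors, all 5 transcription factors and all 5 pericyte genes were lower. With plain library totals in place of TMM the same 34 genes were lower and Bsg was no longer called; the median of all genes then moved to -0.30, and the split over all genes to 44% lower and 15.3% higher. The members were followed role by role, with the tumor libraries beside them.

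Among the receptors, Kdr, the main signalling receptor for VEGF, measured 19.2, 9.87 and 6.46 CPM in input and 2.86, 2.19 and 2.36 in IP with AZD, against 19.6, 18.4 and 16.7 in tumor input and 13.3, 16.1 and 12.6 in tumor IP. Flt1, the decoy-like VEGF receptor, measured 61.0, 30.8 and 33.9 CPM in input and 9.81, 4.24 and 6.86 in IP with AZD, against 61.4, 46.1 and 54.8 in tumor input and 40.1, 36.7 and 36.3 in tumor IP. Tek, the angiopoietin receptor, measured 11.7, 8.42 and 11.1 CPM in input and 0.572, 1.23 and 1.79 in IP with AZD, against 3.13, 12.3 and 12.5 in tumor IP. For each of them no AZD IP library reached the lowest AZD input library. Tie1, the orphan partner of Tek, measured 9.71, 6.39 and 5.30 CPM in input and 0.654, 0.558 and 0.985 in IP with AZD, against 7.13, 10.6 and 8.22 in tumor input and 4.84, 7.59 and 6.99 in tumor IP. It had the lowest log2 fold of all 38 genes, -3.25 ± 0.34 (adjusted p = 0.000131), a 9.50-fold difference. Ptprb, the endothelial phosphatase that acts on Tek and Cdh5, measured 57.6, 40.2 and 42.7 CPM in input and 11.7, 7.14 and 12.5 in IP with AZD, against 31.1, 53.3 and 64.5 in tumor input and 22.3, 40.0 and 40.4 in tumor IP. Eng, a co-receptor for TGF-beta family ligands, measured 11.7, 9.05 and 6.02 CPM in input and 3.35, 2.05 and 2.78 in IP with AZD, against 8.02, 8.96 and 9.79 in tumor input and 4.62, 8.0 and 4.99 in tumor IP. Both kept every AZD IP library below every AZD input library, which the tumor libraries of Ptprb did not do.

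The junction genes moved in the same direction, with one exception. Cldn5 measured 34.8, 20.0 and 20.0 CPM in input and 7.36, 2.72 and 4.54 in IP with AZD, against 25.0, 23.3 and 17.6 in tumor input and 21.8, 19.3 and 20.3 in tumor IP. Pecam1, an adhesion molecule of endothelial contacts, measured 28.2, 16.2 and 18.9 CPM in input and 3.43, 2.01 and 3.73 in IP with AZD, against 26.3, 19.8 and 19.9 in tumor input and 16.0, 14.6 and 13.4 in tumor IP. Emcn, a sialomucin of the luminal coat, measured 6.13, 4.11 and 4.47 CPM in input and 1.23, 0.595 and 1.23 in IP with AZD, against 4.65, 5.60 and 5.17 in tumor input and 2.86, 3.38 and 3.38 in tumor IP. The AZD fold was the larger one for all 3 genes. Esam, a junction adhesion molecule, showed the smallest fold among those lower (-1.43 ± 0.20): 22.2, 15.6 and 16.1 CPM in input and 8.01, 5.62 and 6.47 in IP with AZD, against 15.7, 14.7 and 12.4 in tumor input and 11.8, 9.83 and 11.1 in tumor IP. Cd34 was the exception, with 29.2, 41.4 and 55.7 CPM in input and 25.3, 90.5 and 86.3 in IP with AZD. Its replicate 1 was lower in IP and its replicates 2 and 3 were higher, so the groups overlapped and the fold of 0.70 ± 0.42 did not pass (adjusted p = 0.175). With the replicate block Cd34 was called higher at 0.56 ± 0.17 (adjusted p = 0.00671), and without AZD replicate 1 at 0.89 ± 0.13 (adjusted p = 6.96e-05).

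The barrier carriers included the gene with the smallest adjusted p. Mfsd2a measured 45.1, 45.6 and 39.5 CPM in input and 8.34, 7.03 and 6.40 in IP with AZD, a log2 fold of -2.59 ± 0.14 (adjusted p = 1.69e-05), or 6.01-fold. Abcb1a, the efflux pump P-glycoprotein, measured 40.1, 37.7 and 48.5 CPM in input and 3.84, 3.91 and 7.38 in IP with AZD, against 13.6, 35 and 40.6 in tumor input and 11, 23.6 and 25.5 in tumor IP (-3.02 ± 0.25 with AZD, adjusted p = 5.54e-05). Slco1a4 measured 66.1, 69.5 and 91.8 CPM in input and 8.34, 8.22 and 17 in IP with AZD, against 16.0, 46.8 and 49.0 in tumor IP. Abcg2, the efflux pump known as breast cancer resistance protein, was depleted least of the 4 pumps and carriers called lower: 62.6, 56.2 and 57.4 CPM in input and 25.8, 21.1 and 18.2 in IP with AZD (-1.44 ± 0.14). Bsg measured 326, 306 and 295 CPM in input and 481, 362 and 348 in IP with AZD (0.37 ± 0.13, adjusted p = 0.038). Its call was lost without AZD replicate 2 (adjusted p = 0.124), without AZD replicate 3 (0.0706), with plain library totals (0.594) and with a filter of at least 5 CPM (0.132).

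Of the 9 other endothelial genes, 8 were lower in AZD IP. Ly6c1, a Ly6 surface antigen of brain endothelium, measured 21.6, 18 and 24.8 CPM in input and 2.29, 1.97 and 2.99 in IP with AZD (-3.13 ± 0.21, adjusted p = 3.07e-05). Ly6a, the antigen Sca-1, measured 15.5, 11.8 and 15.4 CPM in input and 1.63, 1.04 and 2.14 in IP with AZD. These were the steepest differences of the group, 8.78-fold and 8.79-fold. Vwf, the clotting factor carrier stored in endothelial granules, measured 44.9, 23.0 and 17.9 CPM in input and 6.95, 2.98 and 3.73 in IP with AZD, against 41.7, 33.5 and 27.7 in tumor input and 36.4, 29.8 and 25.3 in tumor IP. Pglyrp1, a peptidoglycan-binding protein enriched in brain endothelium, measured 5.08, 3.04 and 4.97 CPM in input and 0.409, 0.409 and 0.985 in IP with AZD, against 4.67, 3.02 and 2.49 in tumor IP. Ramp2, which turns the calcitonin receptor-like receptor into an adrenomedullin receptor, measured 8.30, 9.56 and 8.78 CPM in input and 1.55, 2.45 and 2.07 in IP with AZD. Libraries of the 2 fractions were apart in each case. Nostrin, an adaptor that traffics nitric oxide synthase, measured 9.48, 7.47 and 6.35 CPM in input and 1.88, 1.49 and 1.83 in IP with AZD, against 5.62, 5.80 and 7.51 in tumor input. Nos3 itself measured 9.71, 6.64 and 8.17 CPM in input and 2.21, 2.05 and 1.65 in IP with AZD. Itm2a was depleted least of the 8 (-0.92 ± 0.22, adjusted p = 0.0062), and its adjusted p was 0.0786 without AZD replicate 3.

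Egfl7, a secreted protein of vessel sprouting whose gene also holds the microRNA genes Mir126a and Mir126b, was the exception of that group. It measured 26.8, 22.7 and 20.9 CPM in input and 36.3, 20.2 and 19.3 in IP with AZD, so that the groups overlapped (0.10 ± 0.24, adjusted p = 0.744). In control and tumor the same gene had been below 0 in all 3 pairs, with means of -0.39 ± 0.08 and -0.33 ± 0.17 (SD, n = 3), close to the medians of the other vessel genes.

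All 5 transcription factors were lower at low counts. Erg, an ETS factor that holds endothelial identity, measured 8.94, 5.89 and 4.08 CPM in input and 1.31, 0.967 and 0.844 in IP with AZD, against 6.24, 3.52 and 4.19 in tumor input and 5.88, 3.38 and 3.64 in tumor IP. Foxq1, a forkhead factor of brain endothelium, measured 4.31, 2.91 and 2.32 CPM in input and 0.245, 0.372 and 0.738 in IP with AZD, against 4.46, 4.77 and 4.13 in tumor input and 2.09, 3.25 and 2.30 in tumor IP. Lef1, a nuclear partner of beta-catenin in Wnt signalling, measured 3.45, 3.80 and 5.19 CPM in input and 0.817, 0.595 and 1.09 in IP with AZD, against 9.77, 5.85 and 6.31 in tumor input and 5.11, 4.07 and 2.76 in tumor IP. None of the AZD IP libraries reached the AZD input range for these 3 factors. Sox17 and Sox18, which act in arterial and vascular development, were lower too (-2.56 ± 0.42 and -1.83 ± 0.50), and the call for Sox18 was lost without AZD replicate 3 (adjusted p = 0.0515).

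Pericyte genes followed the endothelial ones. Rgs5 measured 60.6, 53.7 and 60.7 CPM in input and 13.8, 10.5 and 12.7 in IP with AZD (-2.25 ± 0.13, adjusted p = 2.01e-05). Abcc9 measured 24.4, 21.3 and 15.6 CPM in input and 4.17, 2.98 and 3.16 in IP with AZD, against 21.5, 22.1 and 17.4 in tumor input and 15.9, 16.7 and 14.5 in tumor IP. Vtn, vitronectin, an adhesive protein that brain pericytes secrete, measured 24.0, 28.6 and 35.1 CPM in input and 2.62, 3.53 and 5.20 in IP with AZD, a 7.47-fold difference. The fractions were apart for each of the 3. Anpep, an aminopeptidase of mural cells, measured 1.23, 1.52 and 2.15 CPM in input and 0.163, 0.149 and 0.352 in IP with AZD, against 1.59, 3.36 and 2.29 in tumor input and 0.989, 2.06 and 0.951 in tumor IP. Higd1b, a mitochondrial protein of pericytes, measured 1.72, 1.84 and 2.10 CPM in input and 0.327, 0.223 and 0.527 in IP with AZD, against 1.12, 1.49 and 1.90 in tumor input and 0.824, 1.14 and 1.08 in tumor IP. Of the contractile genes, Myl9, a myosin light chain, measured 5.17, 2.91 and 7.73 CPM in input and 0.817, 0.744 and 1.41 in IP with AZD, against 6.63, 6.18 and 7.67 in tumor input and 5.93, 3.75 and 5.18 in tumor IP. Acta2, smooth muscle actin, was lower (-2.49 ± 0.65). Tagln, an actin-binding protein of smooth muscle, measured 15.6, 7.34 and 10.5 CPM in input and 14.2, 2.34 and 3.23 in IP with AZD; replicate 1 barely differed, and the fold of -0.84 ± 0.61 did not pass (adjusted p = 0.26; -1.08 ± 0.25 and adjusted p = 0.0011 with the replicate block).

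The depletion in IP was deeper with AZD than in tumor for 30 of the 38 genes and shallower for 0, in a test of the difference of the IP to input folds, where 20.8% of all genes were lower and 12.3% higher. The median difference was -1.90, and it was clearest for Rgs5 (-1.89 ± 0.15, adjusted p = 3.97e-07), Abcc9 (-2.24 ± 0.24, adjusted p = 4.3e-06) and Mfsd2a (-2.07 ± 0.24, adjusted p = 1.21e-05). The 8 genes that did not pass were Cd34, Bsg, Egfl7, Itm2a, Sox17, Sox18, Acta2 and Tagln. With the replicate block 34 genes were lower, Itm2a, Sox17, Acta2 and Tagln now included, and Cd34 was higher (0.89 ± 0.21, adjusted p = 0.00149), against 28.4% and 21.8% of all genes in that fit. Calls were lost without AZD replicate 2 for Eng, Slco1a4, Lef1 and Anpep, and without tumor replicate 2 for Eng and Lef1. This comparison also changes library set, which cannot be told apart from AZD.

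Markers of other cell types moved with the vessel genes in AZD IP, while those of excitatory neurons moved the other way. The mean over 3 pairs of the median log2 of IP over input was -2.41 ± 0.22 (SD) for the 38 genes, -1.83 ± 0.35 for 26 other endothelial genes and -1.88 ± 0.22 for 19 other pericyte and smooth muscle genes. It was -2.26 ± 0.23 for astrocyte markers, -2.29 ± 0.23 for oligodendrocyte markers, -2.44 ± 0.38 for microglia and macrophage markers, -1.95 ± 0.27 for inhibitory neurons and 1.29 ± 0.16 for excitatory neurons. In control the same means were -0.54 ± 0.25 for the vessel genes, 0.00 ± 0.11 for astrocyte markers, -0.10 ± 0.09 for microglia and macrophage markers and 0.21 ± 0.08 for excitatory neurons. Other lists were also below 0 in control: -0.44 ± 0.15 for other pericyte and smooth muscle genes, -0.37 ± 0.19 for glioma lineage markers, -0.27 ± 0.15 for perivascular fibroblast markers and -0.25 ± 0.08 for other endothelial genes. Camk2a measured 428, 780 and 661 CPM in input and 984, 1970 and 2030 in IP with AZD. The part of this general shift in the result for the vessel genes was not tested.

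**Figure D3:**
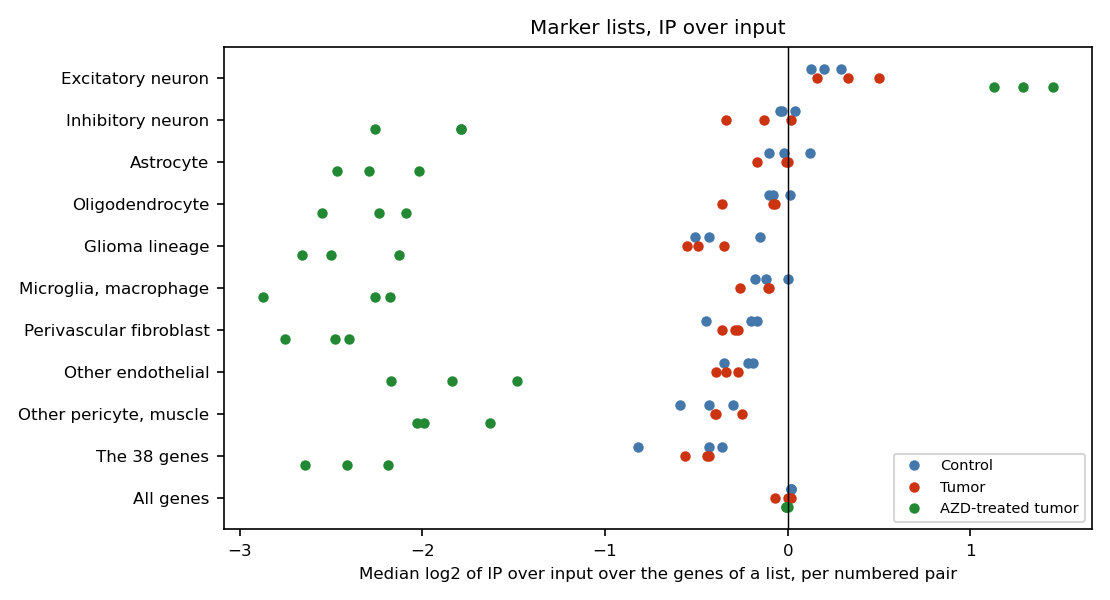
Median log2 of IP over input CPM (horizontal axis) over the genes of each marker list (vertical axis), with 1 point per numbered pair, coloured by condition. With AZD, every list except excitatory neurons (mean 1.29) and all genes lies below -1, with a mean of -2.41 for the 38 vessel genes; in control and tumor the lists lie between -1 and 1.

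Tumor cortex differed from control cortex in some vessel genes and in both directions. The input fraction had 4 of the 38 genes higher and 10 lower, against 24.5% and 23.6% of all genes, and in IP 4 were higher and 6 lower, against 26.1% and 20.9%. These shares are near or below those of all genes. The median log2 fold was -0.31 in input and -0.18 in IP. Between conditions, fewer cells of a type and less RNA per cell cannot be told apart in bulk RNA of this kind. Mfsd2a, Abcg2 and Ramp2 were higher in both fractions, and Ly6c1, Ly6a, Egfl7, Sox17 and Vtn were lower in both; input and IP of one number pair, so the fractions are not independent. With plain library totals the counts were 5 higher and 7 lower in input and 5 higher and 3 lower in IP. The split over all genes moved the same way, to 28.8% higher and 19.4% lower in input and to 30% and 17% in IP.

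Mfsd2a (chr4:122946850-122961194, GRCm38) rose from 23.9, 22.9 and 22 CPM in control input to 86.7, 52.7 and 56.1 in tumor input, a log2 fold of 1.49 ± 0.18 (SE, n = 3 per group, edgeR adjusted p = 0.000119), or 2.81-fold. In IP it rose from 13.5, 14.2 and 15.9 CPM to 53.1, 38.6 and 42.5 (1.66 ± 0.15, adjusted p = 1.17e-05). Every tumor library was above every control library, and without tumor replicate 1, the highest, the folds were 1.23 ± 0.11 and 1.5 ± 0.13. Abcg2 (chr6:58584491-58692451) rose from 31.4, 26.7 and 28.2 CPM to 108, 57.0 and 53.8 in input and from 25.0, 21.5 and 22 to 79.0, 49.6 and 58.0 in IP. Its log2 folds were 1.33 ± 0.23 (adjusted p = 0.00139) and 1.48 ± 0.18 (adjusted p = 0.000113), and 0.93 ± 0.11 and 1.25 ± 0.14 without tumor replicate 1. The pump is also known from stem-like tumor cells, and Mfsd2a from other tissues, so a vessel source is not given by the gene alone. Ramp2 (chr11:101246334-101248250) rose from 9.67, 7.31 and 8.32 CPM to 21.9, 13.4 and 13.6 in input and from 4.95, 5.35 and 4.90 to 14.7, 9.24 and 8.50 in IP (0.94 ± 0.21 and 1.12 ± 0.23, and 0.66 ± 0.17 and 0.82 ± 0.18 without tumor replicate 1). All 3 genes passed in both fractions under every alternative tried.

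The other genes that rose passed the test in 1 fraction. Pglyrp1 went from 2.61, 2.16 and 2.88 CPM to 6.82, 4.35 and 3.37 in input (0.92 ± 0.31, adjusted p = 0.0307) and stood at 0.60 ± 0.39 in IP (adjusted p = 0.233). Nostrin rose in IP from 2.54, 1.83 and 2.80 CPM to 4.07, 3.25 and 6.36 (0.97 ± 0.28, adjusted p = 0.0147) and stood at 0.34 ± 0.21 in input (adjusted p = 0.205). The call for Pglyrp1 was lost without tumor replicate 1 or without any control replicate (adjusted p up to 0.12), and that for Nostrin without tumor replicate 3 or control replicate 2 (up to 0.0766). Whether the fractions differ for these genes was tested above, and neither passed.

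Among the genes that fell, Vtn (chr11:78499120-78502325) went from 61.2, 46.8 and 57.9 CPM in control input to 24.1, 33.8 and 37.9 in tumor input (-0.81 ± 0.19, adjusted p = 0.00515), and from 49.4, 44.1 and 55.2 to 16.3, 30.5 and 34.8 in IP (-0.83 ± 0.25, adjusted p = 0.0175). Without tumor replicate 1, the lowest for Vtn, the folds were -0.65 ± 0.16 and -0.58 ± 0.18. Egfl7 (chr2:26581083-26592682) went from 26.9, 24.3 and 26.5 CPM to 15.4, 18 and 14.3 in input (-0.72 ± 0.14, adjusted p = 0.00218), and from 19.4, 19.4 and 20.6 to 11.3, 13.7 and 13.0 in IP (-0.61 ± 0.21, adjusted p = 0.0347). Tumor libraries lay below control libraries throughout for both genes. Ly6a fell from 20.2, 17.6 and 22.6 CPM to 13.8, 13.2 and 9.79 in input, and from 12.2, 13.6 and 22.2 to 8.46, 8.42 and 7.22 in IP (-0.73 ± 0.18 and -0.96 ± 0.26). Ly6c1 fell from 26.9, 18.1 and 25.6 CPM to 11.5, 18 and 18.4 in input, where the ranges overlapped, and from 12.1, 16.3 and 20.2 to 6.98, 9.79 and 10.1 in IP (-0.58 ± 0.21 and -0.82 ± 0.22). Its near-identical neighbour Ly6c2 was at most 0.275 CPM in any library. Sox17 fell from 4.45, 5.21 and 5.44 CPM to 1.40, 3.15 and 3.05 in input, and from 1.76, 2.60 and 3.81 to 0.714, 1.33 and 1.51 in IP (-1.02 ± 0.30 and -1.15 ± 0.42). Without tumor replicate 1, its lowest library, the folds of Sox17 were -0.72 ± 0.23 and -0.92 ± 0.43, and the latter did not pass (adjusted p = 0.114).

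Of the genes lower in input, Tek, Ptprb, Cd34, Emcn and Slco1a4 did not pass in IP, where their log2 folds were -0.90, -0.61, -1.02, -0.28 and -0.62. Ptprb measured 79.4, 89.7 and 102 CPM in control input against 31.1, 53.3 and 64.5 in tumor input (-0.89 ± 0.23, adjusted p = 0.00987), and Cd34 measured 82.1, 70.4 and 84.0 against 26.6, 45.3 and 50.1 (-0.98 ± 0.25, adjusted p = 0.0087). Both were lowest in tumor input 1, and without it the folds were -0.64 ± 0.16 for Ptprb and -0.75 ± 0.21 for Cd34. Tek measured 23.6, 23.2 and 25.1 CPM in control input. Without tumor replicate 1, its log2 fold in input was -0.72 ± 0.16 in place of -1.10 ± 0.34, and that of Slco1a4 was -0.51 ± 0.15 in place of -0.85 ± 0.31. Acta2 fell in IP from 8.56, 4.57 and 7.84 CPM to 2.53, 3.61 and 3.31 (-1.12 ± 0.42, adjusted p = 0.0483), and measured -1.16 ± 0.45 in input (adjusted p = 0.0546).

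Calls on the lower side depended on single libraries, in input mostly of the control group and in IP of both groups. In input, 8 genes in all were called without control replicate 3 and 9 without control replicate 1, in place of 14. The share of all genes called fell as well, from 48.1% to 37.1% and 38.5%. In IP 4 were called without control replicate 3, in place of 10, and none of those was lower, while the share of all genes called went from 47% to 37.5%. Lower calls in IP numbered 3, 4 and 5 without tumor replicates 1, 2 and 3, in place of 6. Without control replicates 1 and 2 they numbered 6 and 4. The share of all genes called lower was 17.5%, 18.1%, 19.7%, 16.5% and 16.2% in these fits, in place of 20.9%. In input, Ptprb, Cd34, Ly6a, Egfl7 and Vtn passed as lower under every alternative. Tek lost its call without control replicate 1 or 3 (adjusted p up to 0.0603), and Sox17 without control replicate 2 or 3 (up to 0.0572). The call was lost for Ly6c1 without tumor replicate 1 or control replicate 1 or 3 (up to 0.154). It was lost for Slco1a4 without any 1 control replicate (up to 0.109) and for Emcn whenever any 1 library was left out (up to 0.13). In IP, Ly6c1, Ly6a and Vtn lost theirs without control replicate 3 (adjusted p = 0.0545, 0.0606 and 0.0668), and Egfl7, Sox17 and Acta2 under most omissions (up to 0.0957, 0.199 and 0.143).

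Several widely used markers were not among the 14 called genes in input, chosen here after their values were seen; Tek, Ptprb, Emcn, Cd34 and the pericyte gene Vtn, described above, were called lower. Log2 folds in input were -0.07 ± 0.22 for Cldn5, -0.19 ± 0.21 for Pecam1, 0.13 ± 0.30 for Kdr and -0.34 ± 0.22 for Flt1. Cdh5, the cadherin of endothelial junctions and not among the 38, measured -0.02 ± 0.30. Of the pericyte genes, Rgs5 measured 0.17 ± 0.09, Abcc9 -0.03 ± 0.18 and Pdgfrb, the receptor that recruits pericytes, -0.30 ± 0.15. Markers of other cells differed more: 8 of 8 glioma lineage markers were higher in tumor input, with a summed level of 6140 to 7510 CPM against 544 to 623, and 12 of 12 excitatory neuron markers were lower, with 1150 to 2120 CPM against 3380 to 3580. Microglia and macrophage markers summed to 259 to 313 CPM in tumor input and 309 to 341 in control input. The part of these shifts in the vessel results was not tested.

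**Figure D4:**
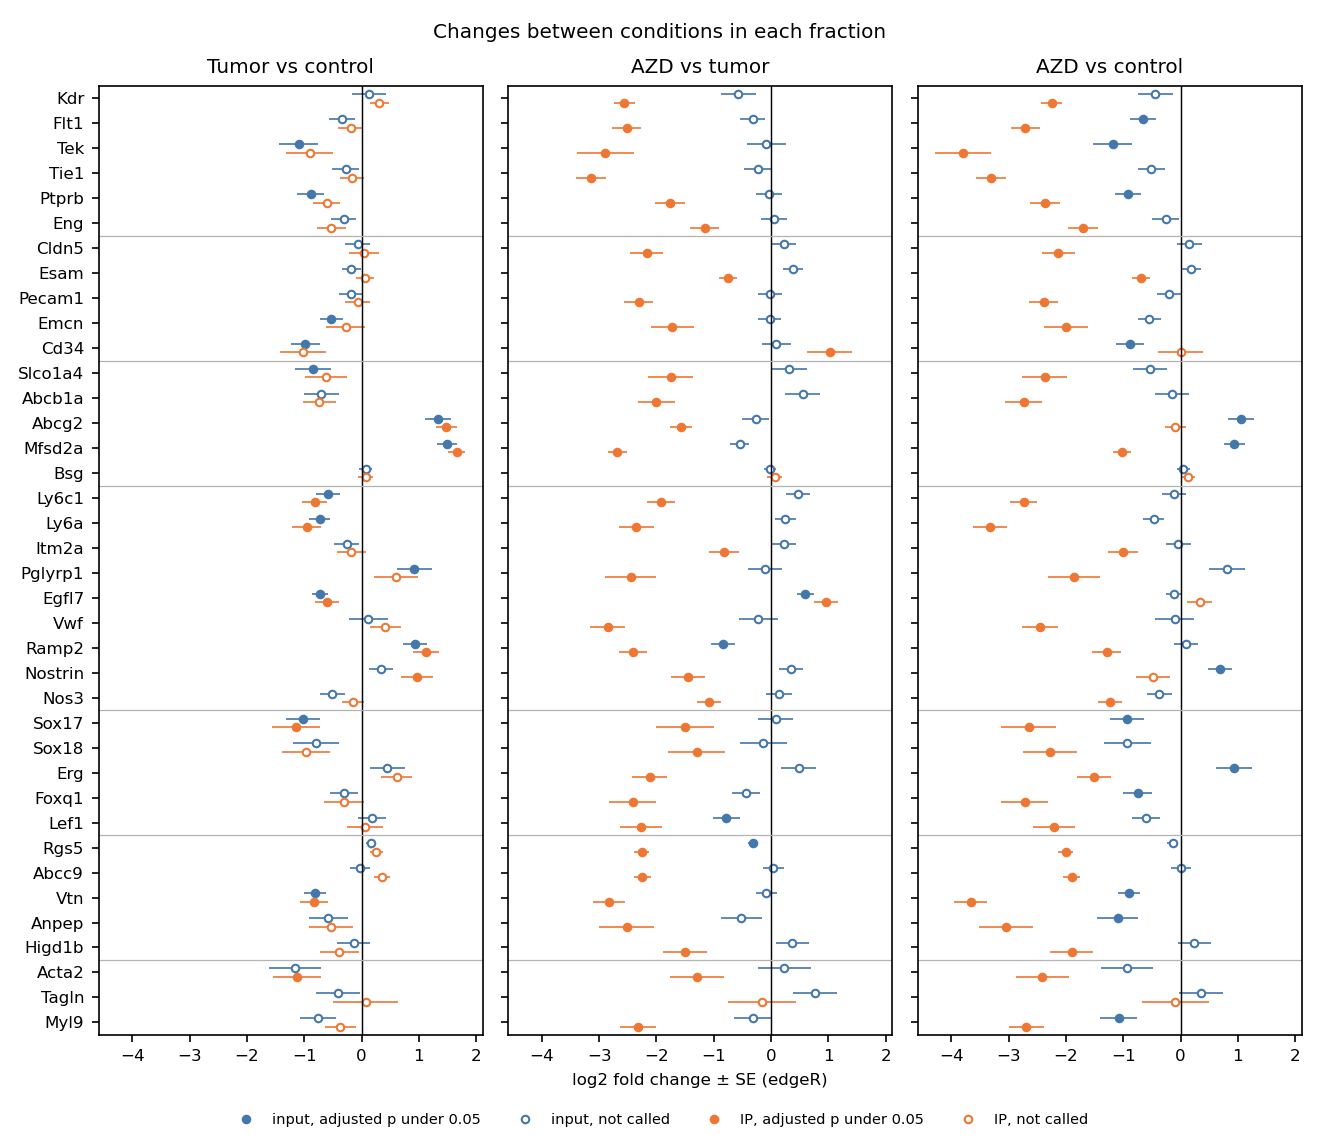
Log2 fold change with its SE (horizontal axis) for each of the 38 genes (vertical axis, grouped by role) in input (blue) and IP (orange), with filled points for an adjusted p under 0.05 in edgeR. Tumor against control shows Mfsd2a and Abcg2 above 1 in both fractions; AZD against tumor shows most input points near 0 (median -0.02) and most IP points near -2 (median -2.06).

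The promoters of a few of these genes are shown because the genes moved together or stood apart: Mfsd2a and Abcg2, which rose in tumor, Egfl7 and Cd34, which were not depleted in AZD IP, and Tek, a receptor lower in tumor input. RefSeq on GRCm38.p6 gave 35 start windows for 25 of the 38 genes. The 250 bases before the start are printed in the direction of transcription, in lower case, with matches to searched motifs of factors known from endothelium in capitals. Both strands were searched for an ETS motif (CCGGAAG or CAGGAAG), a SOX motif (AACAAT), a TCF/LEF motif (ATCAAAG or CTTTGTT), a FOX motif (GTAAACA) and the CArG box. The windows are Mfsd2a at chr4:122961189-122961438 on the minus strand, Abcg2 at chr6:58596422-58596671, Egfl7 at chr2:26580833-26581082, Cd34 at chr1:194938571-194938820 and Tek at chr4:94739039-94739288, all 4 on the plus strand. The annotated gene starts at chr6:58584491 for Abcg2 and chr4:94739086 for Tek. All of the Abcg2 window and most of the Tek window, with its marked letters, therefore lie inside the gene.
Mfsd2a: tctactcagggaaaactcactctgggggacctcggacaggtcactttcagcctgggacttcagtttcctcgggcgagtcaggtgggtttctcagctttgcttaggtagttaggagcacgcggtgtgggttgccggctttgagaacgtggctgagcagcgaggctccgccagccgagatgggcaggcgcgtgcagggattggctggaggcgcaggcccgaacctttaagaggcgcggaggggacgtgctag
Abcg2: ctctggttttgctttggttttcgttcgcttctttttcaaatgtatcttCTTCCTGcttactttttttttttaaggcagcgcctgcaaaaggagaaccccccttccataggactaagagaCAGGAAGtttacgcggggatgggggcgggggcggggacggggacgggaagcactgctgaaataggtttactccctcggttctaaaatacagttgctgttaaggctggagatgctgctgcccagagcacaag
Egfl7: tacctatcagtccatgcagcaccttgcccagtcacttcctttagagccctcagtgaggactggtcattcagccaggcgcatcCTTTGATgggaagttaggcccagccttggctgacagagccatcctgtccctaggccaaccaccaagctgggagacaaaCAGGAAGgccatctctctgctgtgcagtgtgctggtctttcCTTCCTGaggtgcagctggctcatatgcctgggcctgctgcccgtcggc
Cd34: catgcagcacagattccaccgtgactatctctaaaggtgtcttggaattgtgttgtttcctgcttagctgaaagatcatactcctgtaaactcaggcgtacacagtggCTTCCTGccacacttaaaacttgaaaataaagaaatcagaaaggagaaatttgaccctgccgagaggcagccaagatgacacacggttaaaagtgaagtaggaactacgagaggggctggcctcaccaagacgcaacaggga
Tek: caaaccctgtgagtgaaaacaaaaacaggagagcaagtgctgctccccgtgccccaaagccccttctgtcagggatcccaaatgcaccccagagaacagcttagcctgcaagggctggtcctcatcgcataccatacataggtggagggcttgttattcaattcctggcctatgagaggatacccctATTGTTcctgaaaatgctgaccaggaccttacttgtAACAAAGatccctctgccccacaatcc

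The capitals mark 2 ETS matches in Abcg2, 2 ETS matches and 1 TCF/LEF match in Egfl7, 1 ETS match in Cd34, and 1 SOX and 1 TCF/LEF match in Tek; these letters are not in the Mfsd2a window. Abcg2 and Egfl7 have 3 start windows each, and the one with the most matches is printed; the others hold 1 ETS match or none in either gene. Of the 25 genes, 8 (32.0%) had an ETS match in some window, against 19.0% of 27025 genes with a window in the table. By window the shares were 28.6% of 35 and 17% of 32851. The SOX letters were in 4 genes (16.0%, against 10.9%), the TCF/LEF letters in 2 (8.0%, against 9.21%), the FOX letters in 1 (4.0%, against 3.54%) and the CArG box in 2, Lef1 and Myl9 (8.0%, against 1.62%). Genes with an ETS match rose in tumor input (Abcg2 and Pglyrp1), fell (Cd34, Egfl7 and Emcn) or gave no call (Erg, Itm2a and Lef1). A match is a description of these letters and not a binding site.

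Related genes of the vessel pathways, from lists chosen with earlier results known, passed the test on both sides in tumor input, where 24.5% of all genes were higher and 23.6% lower. Of 25 vascular growth ligands and receptors tested, 7 were higher and 4 lower (median 0.12), of 19 Wnt genes of the barrier 8 were higher and 1 lower (median 0.32), and of 25 other barrier junction and transporter genes 8 were higher and 4 lower (median 0.13). Of 26 other endothelial genes 5 were higher and 3 lower, and of 22 other pericyte and smooth muscle genes 4 were higher and 3 lower. Apart from the higher Wnt and barrier genes and the higher vascular growth genes, each share was below that of all genes. Angpt2, the ligand that destabilises vessels through Tek, rose by 2.90 ± 0.72 (adjusted p = 0.00771), and Vegfa, the ligand of Kdr and Flt1, by 0.88 ± 0.23 (adjusted p = 0.00918). Jag1, a Notch ligand, rose by 2.80 ± 0.25, and Ctnnb1, beta-catenin, by 1.25 ± 0.14. Plvap, the diaphragm protein of leaky vessels, measured 0.00 ± 0.29 and Slc2a1, the glucose carrier of the barrier, 0.24 ± 0.11 (adjusted p = 0.997 and 0.102). Many of these genes are also made by glioma or glial cells. Interferon-induced genes, which vessel cells share with other cells, were higher for 14 of 16 genes, with a summed level of 300 to 535 CPM in tumor input against 147 to 173 in control input.

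A close paralog of Abcb1a passed the test where Abcb1a did not; the difference between them was not tested. This gene, Abcb1b, the other mouse P-glycoprotein gene, rose from 4.96, 3.71 and 5.20 CPM to 19.1, 10.6 and 10.5 in tumor input (1.53 ± 0.28, adjusted p = 0.00164) and by 1.54 ± 0.27 in IP. Abcb1a measured 44.7, 47.5 and 49.9 CPM in control input and 13.6, 35 and 40.6 in tumor input, with every tumor library lower (-0.70 ± 0.30, adjusted p = 0.0755). Without tumor replicate 1 Abcb1a was called lower at -0.35 ± 0.13 (adjusted p = 0.0492). How reads shared by such close copies were counted is unstated, so both values are uncertain. The annotation also has 7 of the 38 genes overlapping another counted gene, and whether counting used strand is not given. Abcb1a shares 55994 bases with Rundc3b, and Higd1b, with 494 counts over all libraries, shares 5670 bases with Eftud2, which had 36082.

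Few vessel genes of the input fraction passed the test between AZD-treated and untreated tumor. The test called 1 of 38 genes higher and 3 lower than in tumor, against 7.89% and 9.17% of all genes, and the median log2 fold was -0.02. Egfl7 rose from 15.4, 18 and 14.3 CPM to 26.8, 22.7 and 20.9, above every tumor library (0.60 ± 0.14, edgeR adjusted p = 0.015), a call kept under every alternative. Ramp2 fell from 21.9, 13.4 and 13.6 CPM to 8.30, 9.56 and 8.78 (-0.84 ± 0.21, adjusted p = 0.0219), below every tumor library and within the control range of 7.31 to 9.67. Lef1 fell from 9.77, 5.85 and 6.31 CPM to 3.45, 3.80 and 5.19 (-0.78 ± 0.24, adjusted p = 0.0479) and Rgs5 from 74.3, 73.1 and 75.5 to 60.6, 53.7 and 60.7 (-0.31 ± 0.09, adjusted p = 0.041). For Egfl7 and Ramp2 the change was opposite to that of tumor against control, a comparison that shares the tumor libraries with this one. Calls lower than tumor were lost without any AZD replicate for Ramp2 (adjusted p up to 0.0709), under 9 alternatives including every omission for Rgs5 (up to 0.143), and without AZD replicate 1 or 2 or tumor replicate 1 or 3 for Lef1 (up to 0.138). In all, 1 gene was called without AZD replicate 2, and 2 without AZD replicate 3 or without tumor replicate 1, where 8.96%, 8.62% and 16.5% of all genes were called in place of 17.1%. With the replicate block 3 genes were called, where 18.7% of all genes were. Vegfa fell with AZD in input (-1.24 ± 0.23, adjusted p = 0.00544) and Slc2a1 rose (0.73 ± 0.11, adjusted p = 0.00231).

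Against control, the input of AZD-treated tumor had 4 vessel genes higher and 9 lower, against 20.7% and 16% of all genes, with a median log2 fold of -0.23. Mfsd2a measured 45.1, 45.6 and 39.5 CPM, above the 23.9, 22.9 and 22 of control (0.94 ± 0.18, adjusted p = 0.00263), and Abcg2 stood at 1.05 ± 0.23 (adjusted p = 0.0059); both passed under every alternative. Vtn (-0.90 ± 0.19, adjusted p = 0.00448) and Ptprb (-0.92 ± 0.23, adjusted p = 0.0115) passed as lower under every alternative as well. The other 2 higher genes were Nostrin and Erg, and the other 7 lower ones Flt1, Tek, Cd34, Sox17, Foxq1, Anpep and Myl9. All of these lost their call without some library, at an adjusted p of up to 0.173 for Erg and 0.135 for Flt1. The count fell from 13 to 4 without control replicate 3, to 5 without control replicate 1, to 5 without AZD replicate 2 and to 7 without control replicate 2. The share of all genes called fell from 36.8% to between 23.7% and 27.1% in the same fits. Ramp2 (0.10 ± 0.21) and Egfl7 (-0.12 ± 0.14) gave no call.

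**Figure D5:**
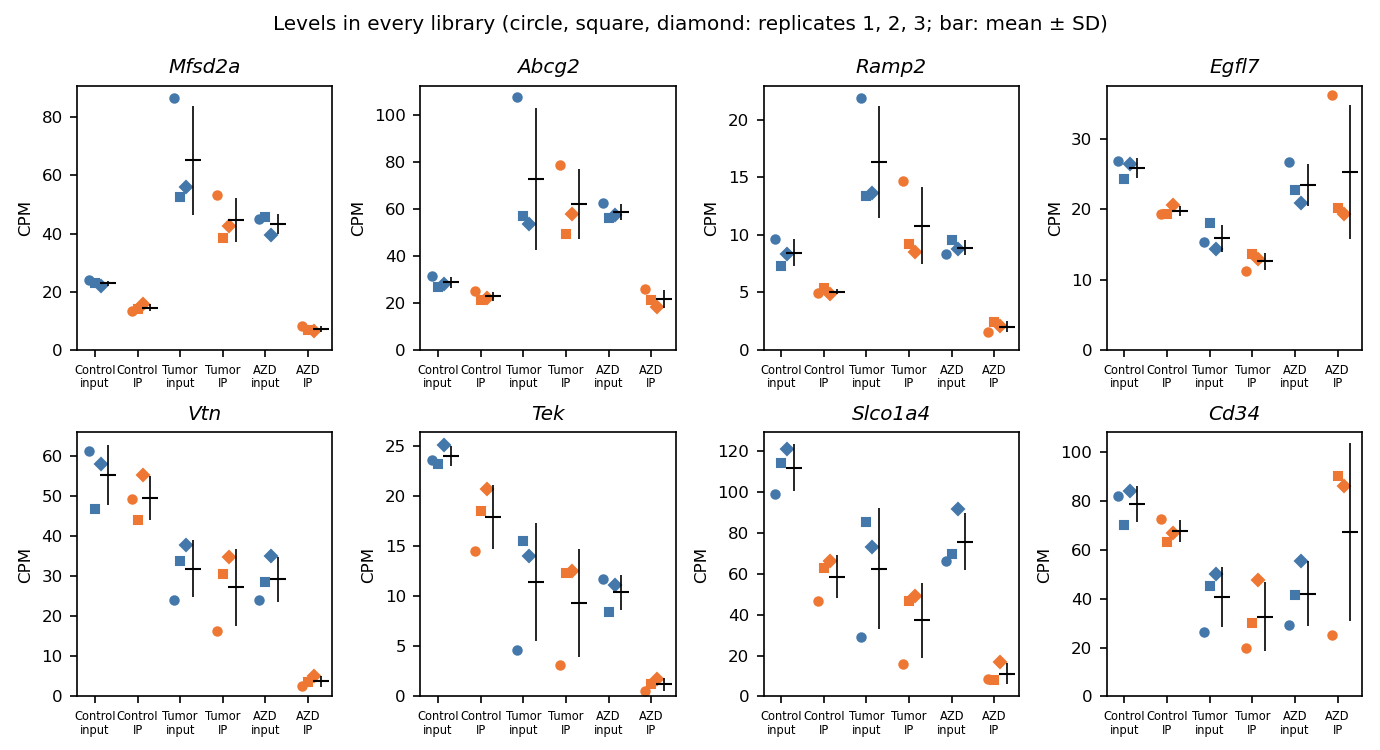
CPM (vertical axes, from 0) of 8 vessel genes in the 6 groups (horizontal axes); circles, squares and diamonds are replicates 1, 2 and 3, blue is input, orange is IP, and bars give the mean and SD. Mfsd2a, Abcg2 and Ramp2 are highest in tumor input 1 (86.7, 108 and 21.9 CPM), Vtn, Tek and Slco1a4 are lowest in AZD IP, and Cd34 in AZD IP is split between 25.3 in replicate 1 and 90.5 and 86.3 in the other replicates.

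In the IP fraction the contrast with AZD was large. Compared with tumor IP, 2 of 38 genes were higher and 34 lower, against 25.1% and 33.5% of all genes, with a median log2 fold of -2.06 against -0.09 for all genes. Rgs5 fell from 53.4, 60.7 and 57.4 CPM to 13.8, 10.5 and 12.7 (-2.26 ± 0.13, adjusted p = 5.53e-07), and Mfsd2a from 53.1, 38.6 and 42.5 to 8.34, 7.03 and 6.40 (-2.68 ± 0.16, adjusted p = 5.92e-07). Abcc9 and Kdr fell by 2.25 and 2.56 on the log2 scale (SE 0.15 and 0.18). These 4 genes had the smallest adjusted p, and every AZD IP library lay below every tumor IP library. Egfl7 rose (0.95 ± 0.21, adjusted p = 0.00304), a call kept under every alternative with a fold of 0.61 without AZD replicate 1. The other higher gene, Cd34 (1.02 ± 0.40, adjusted p = 0.0483), lost its call under 7 alternatives, among them without AZD replicate 2 or 3 and without tumor replicate 1 or 2 (adjusted p up to 0.175). Calls for Itm2a, Sox17, Sox18 and Acta2 also depended on single libraries, among them AZD replicate 2 and tumor replicate 2 for each. The median of all genes moved to -0.23 with plain library totals. Markers of other cell types fell as well from tumor IP to AZD IP, those of excitatory neurons excepted. Mean summed levels went from 269 to 62.7 CPM for microglia and macrophages, from 5030 to 2020 for astrocytes and from 2190 to 4890 for excitatory neurons. Library set changes with AZD here and cannot be told apart from it. The part of the general shift was not tested.

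Compared with control IP, 0 genes were higher and 32 lower in AZD IP, against 16% and 17.4% of all genes, with a median log2 fold of -2.17. Rgs5 measured 41.6, 53.2 and 52.1 CPM in control IP (-2.0 ± 0.13, adjusted p = 1.02e-05), Vtn 49.4, 44.1 and 55.2 (-3.66 ± 0.29, adjusted p = 1.84e-05), Abcc9 12.1, 12.4 and 13.1 (-1.90 ± 0.15, adjusted p = 1.84e-05) and Tie1 6.51, 7.86 and 7.95 (-3.31 ± 0.26, adjusted p = 1.84e-05). Vtn was 12.7-fold lower. The 6 genes without a call were Cd34 (0.00 ± 0.39), Abcg2 (-0.09 ± 0.18), Bsg (0.13 ± 0.13), Egfl7 (0.33 ± 0.21), Nostrin (-0.48 ± 0.29) and Tagln (-0.09 ± 0.58). Abcg2 was thus lower than in tumor IP and near the control IP level, at 25.8, 21.1 and 18.2 CPM against 25.0, 21.5 and 22. In input it was above control, at 62.6, 56.2 and 57.4 CPM with AZD against 31.4, 26.7 and 28.2. The call for Itm2a was lost without AZD replicate 2 or control replicate 3 (adjusted p up to 0.0561). From control IP to AZD IP, mean summed levels also fell for astrocyte (7550 to 2020 CPM) and microglia and macrophage markers (309 to 62.7). They rose for glioma lineage (452 to 669), proliferation (52.5 to 131), perivascular fibroblast (335 to 373) and excitatory neuron markers (4380 to 4890). Here too library set changes with AZD and cannot be told apart from it.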

How the data were processed

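RNA of 18 libraries was cleaned with RNeasy Mini columns and made into libraries with a directional NEBNext Ultra kit, per the labels. The authors deposited raw counts of reads per gene symbol. STAR, DESeq2 and mm10 are named in the submitters' processing notes; versions, the counter, the gene models and whether strand was used are unstated in these sources.

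The 38 genes and the other lists were chosen with earlier results of these data known. Counts were scaled by TMM and filtered by filterByExpr, and tested by the quasi-likelihood F test of edgeR 4.0.16 in R 4.3.3 over all genes with Benjamini-Hochberg adjustment at 0.05. IP was compared with input in 1 fit per condition, conditions in 1 fit per fraction, and the differences of IP to input folds in a fit of all 18 libraries. Values in every library are given for up to 4 called genes with the smallest adjusted p in a comparison, for genes called in both fractions of tumor against control, and for genes called in a difference of IP to input folds; genes outside this rule were named after their values were seen. Across 14459 genes, same-numbered input and IP libraries deviated together (correlations were 0.23 to 0.27 for control pairs, 0.54 to 0.78 for tumor pairs and 0.24 to 0.51 for AZD pairs), so the numbers pair the fractions; conditions were not paired (some correlations were below 0). Alternatives were RLE scaling, plain totals, DESeq2 1.42.0, other filters, the replicate block, 1 fit of all libraries, and leaving out each replicate.

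Each fit was tested on simulated data in which 200 genes had been changed. The simulated libraries were drawn independently, without the pairing of input and IP, and far fewer genes were changed than were called in most real comparisons. Recovery in the real data may therefore differ. At a simulated log2 change of 1, 90.6% were recovered for control IP against input, 49% for tumor and 66% for AZD. For tumor against control, 67.3% and 75.3% were recovered in input and IP. For the differences of IP to input folds the values were 47% for tumor against control and 45% for AZD against tumor. False calls numbered 3 to 26 in these comparisons. Positions and promoters came from RefSeq on GRCm38.p6. Python 3.11.15 and matplotlib 3.10.9 drew the figures.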

Additional observations from a re-analysis of the deposited data

Results flagged for a closer look

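The IP to input fold differed between AZD and tumor, by the test of that difference, for 30 of the 38 genes, each with a lower value with AZD. For the receptors the differences on the log2 scale were -1.93 for Kdr, -2.13 for Flt1, -2.75 for Tek, -2.85 for Tie1, -1.66 for Ptprb and -1.15 for Eng. For the junction and surface genes they were -2.33 for Cldn5, -1.07 for Esam, -2.24 for Pecam1 and -1.64 for Emcn. The carriers and pumps gave -2.01 for Slco1a4, -2.48 for Abcb1a, -1.24 for Abcg2 and -2.07 for Mfsd2a. Other endothelial genes gave -2.33 for Ly6c1, -2.54 for Ly6a, -2.28 for Pglyrp1, -2.58 for Vwf, -1.51 for Ramp2, -1.74 for Nostrin and -1.16 for Nos3. Transcription factors gave -2.54 for Erg, -1.91 for Foxq1 and -1.43 for Lef1. Pericyte genes gave -1.89 for Rgs5, -2.24 for Abcc9, -2.69 for Vtn, -1.94 for Anpep and -1.82 for Higd1b, and the contractile gene Myl9 gave -1.94. The smallest sizes were those of Esam, Eng, Nos3 and Abcg2 and the largest those of Tie1 and Tek. The library set changes together with AZD, and its part in these values cannot be told apart.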

How the results depend on the processing

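No value of a called gene reversed its direction under any alternative. Of the counts of called genes, 10 in place of 26 were called for control IP against input in 1 fit of all 18 libraries. The share of all genes called went from 36.5% to 22.9% there. For tumor IP against input, the count of 0 became 2 with plain library totals, 9 with DESeq2, 5 in 1 fit of all 18 libraries and 29 with the replicate block, which pairs input and IP. In the same fits the share of all genes called went from 5.09% to 5.95%, 11.3%, 13.9% and 35.6%. A filter of at least 5 CPM, which tests fewer genes, gave 22 for AZD IP against input and 2 for AZD against tumor in input. In IP it gave 21 against tumor and 19 against control. With this filter 59.8%, 17.1%, 64.7% and 35.4% of all genes were called in these comparisons, in place of 61.5%, 17.1%, 58.7% and 33.3%. Leaving out each replicate gave 0 to 11 for tumor IP against input, 8 to 14 and 4 to 10 for tumor against control in input and IP, 1 to 4 for AZD against tumor in input and 4 to 12 for AZD against control in input. It gave 19 to 22 for control IP against input, 32 to 37 for AZD IP against input, 31 to 36 and 31 to 33 for AZD IP against tumor IP and control IP, and 0 and 26 to 33 for the differences of IP to input folds in tumor and AZD. In the order given, the shares of all genes called were 0% to 11.5%, 36% to 47.2%, 37.5% to 44%, 8.62% to 16.5% and 23.7% to 31.5%. The later ones were 20.8% to 30.4%, 39% to 62%, 50.2% to 56.7%, 21.4% to 30%, 0.0184% to 0.13% and 21.5% to 36.7%. Between conditions, where the numbers do not pair the libraries, the replicate block gave 15 in both fractions of tumor against control. In those fits 49.3% of all genes were called in input and 47.5% in IP. Plain totals moved the split over all genes to 11.4% higher and 24.6% lower for control IP against input, and to 5.44% and 25.2% for the AZD difference of IP to input folds. Low counts limit the AZD IP values most, since 8 genes had a count under 10 there.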
